A study of Mus musculus with 9 samples.

Results

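Interferon-stimulated genes were followed in the back skin of male BALB/c mice, 6 to 8 weeks old, in 3 groups of 3 RNA-seq libraries. A list of 36 mouse genes of the type I interferon response was set by name, and 35 of them were found among the 29205 genes of the count table. Oas1a was not analysed here. All mice were shaved and depilated. The control group received no treatment. The IMQ group received 62.5 mg of a 5% w/w imiquimod cream on the back each day for 5 days. The study's paper does not say which days these were, so it leaves the time from the last application to sampling unknown. The LYS-High group received the same cream and, by mouth, Longkui Yinxiao soup, a decoction of botanical drugs given at the higher of the study's doses. Skin was taken on day 13, as whole tissue, so every value is an average over epidermis, dermis, hair follicles, vessels, muscle and immune cells, and fewer cells of a type cannot be told apart from less RNA per cell. The labels do not say whether the 3 libraries of a group came from separate animals, so the p-values measure only the spread between these libraries, which may be technical.

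Imiquimod is an agonist of the endosomal RNA receptor Tlr7, which is best known from plasmacytoid dendritic cells and signals through Myd88 and Irf7 to type I interferon genes. Secreted interferon binds its receptor Ifnar1/Ifnar2 on nearby cells, and signalling through the receptor's kinases leads to the complex ISGF3, which includes Stat2 and Irf9. ISGF3 binds the interferon-stimulated response element in front of its target genes, whose products sense viral RNA, block viral entry, translation or replication, or shut the response down again.

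The response element was searched in RefSeq promoter windows of the mouse build GRCm38.p6, each with 250 bases before and 50 after a gene's start. The letters searched were GAAANNGAAA on either strand, and matches that overlap each other were each counted. Of the 36 genes, 27 had a window, and 17 of these (63%) held the element, against 3.99% of all 27025 genes with a window. The gamma-activated sequence, searched as TTCNNNGAA, which reads the same on both strands, was held by 6 of the 27 (22.2%), against 9.55% of all genes. The 200 bases before the start are shown for 4 genes, 5′ to 3′ on the strand of the gene, with the element in capitals. Isg15 was the member with the largest rise after imiquimod, Bst2 was among the 5 with the largest fall, and Ifit3 and Ifit3b are near copies of each other whose reads are hard to assign. They lie at chr4:156200819-156201018 (minus strand), chr8:71537473-71537672 (minus), chr19:34583329-34583528 (plus) and chr19:34607757-34607956 (plus).
Isg15: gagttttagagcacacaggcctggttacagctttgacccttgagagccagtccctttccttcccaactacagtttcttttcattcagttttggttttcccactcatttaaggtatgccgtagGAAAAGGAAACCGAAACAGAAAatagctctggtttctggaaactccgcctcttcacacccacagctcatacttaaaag
Bst2: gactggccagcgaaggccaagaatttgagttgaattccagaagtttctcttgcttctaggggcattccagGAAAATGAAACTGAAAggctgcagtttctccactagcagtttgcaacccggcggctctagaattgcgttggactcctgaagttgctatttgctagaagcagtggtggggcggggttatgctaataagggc
Ifit3: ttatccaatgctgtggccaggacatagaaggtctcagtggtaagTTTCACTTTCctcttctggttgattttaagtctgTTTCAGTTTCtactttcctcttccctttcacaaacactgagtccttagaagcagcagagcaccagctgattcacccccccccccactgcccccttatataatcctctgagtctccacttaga
Ifit3b: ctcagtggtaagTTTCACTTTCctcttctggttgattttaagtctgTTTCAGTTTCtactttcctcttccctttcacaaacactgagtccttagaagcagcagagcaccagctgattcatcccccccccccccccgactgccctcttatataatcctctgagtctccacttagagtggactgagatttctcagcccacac
In Isg15 a run of 3 overlapping matches began between 78 and 66 bases before the start, and in Bst2 a pair began 130 and 124 bases before it. Ifit3 held matches 156 and 122 bases before its start and Ifit3b 188 and 154 bases before its own, on the opposite strand. Isg15 and Bst2, which both held the element close to the start, changed in opposite directions after imiquimod (values given with the antiviral effectors and the ISG15 system). Among members with a window and a value, 7 of the 16 with the element were lower and 1 was higher in the IMQ group, with a median log2 fold change of −0.62, and of the 10 without it 4 were lower and 2 higher, with a median of −0.84.

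Library totals ran from 14658645 to 19609878 counts. Levels are given as CPM, counts scaled to a library of 1000000 with TMM factors over all 9 libraries, in the order of replicates 1, 2 and 3. A gene was called when edgeR's adjusted p was below 0.05 with a log2 fold change beyond 0.58 in either direction. All 35 measured members passed the filter on low counts in each comparison. By FPKM, which is per transcript length, Ifitm3 was the most abundant member in control skin at 278 ± 14.3 FPKM (SD, n = 3), followed by Bst2 at 53.0 ± 5.07 and Isg15 at 21.8 ± 3.91, and Herc6 was the least abundant at 0.506 ± 0.136. Summed over the members, control skin held 777 ± 27.4 CPM, imiquimod-treated skin 559 ± 145 and skin of the LYS-High group 693.5 ± 239 (SD, n = 3). Exonic bases were shared with another annotated gene by 11 members (Dhx58, Gbp2, Herc6, Ifi35, Igtp, Irf7, Irf9, Oasl1, Parp14, Rtp4 and Usp18), whose counts are uncertain to that extent.

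The libraries of the treated groups stood further apart in these genes than in the rest of the transcriptome. The highest library of a group was, at the median of the members, 1.27 times the lowest among control libraries, 1.86 times among IMQ and 2.98 times among LYS-High libraries, where the medians of all genes were 1.26, 1.33 and 1.41. LYS-High 1 was the lowest library of its group for 33 of 35 members, against 37.9% of all genes, and the lowest of all 9 libraries for 21, against 6.5% of all genes. The mean of LYS-High 2 and 3 was 2.84 times the level in LYS-High 1 at the median of the members, over 2 times for 27 of them, and ranged from 0.76 times for Ifi35 to 21.1 times for Ifi44. IMQ 1 was the lowest IMQ library for 29 of 35 members, against 39.5% of all genes, and IMQ 2 the highest for 27, against 33% of all genes. Summed neutrophil markers were likewise lowest in IMQ 1 and highest in IMQ 2, at 239, 719 and 461 CPM in IMQ 1, 2 and 3. General leukocyte markers had the same order. Markers of macrophages and dendritic cells, T and NK cells, fibroblasts and endothelium were instead highest in IMQ 1. Fibroblast markers, for example, were at 10536, 4588 and 3277 CPM. Hair follicle markers, at 0.911, 0.670 and 0.440 CPM summed, were too low for their order to be read. The summed plasmacytoid dendritic cell markers were also highest in IMQ 1, but the gene Cox6a2 made up most of that sum (41 of 51.3 CPM). Keratinocyte markers were highest in IMQ 3 and skeletal muscle markers lowest there. The part of any of these in the members' levels was not tested. On a log2 scale and averaged over members, IMQ 1 differed from the control mean by −1.05 and LYS-High 1 by −1.43, whereas IMQ 2 lay at −0.17, IMQ 3 at −0.61, LYS-High 2 at −0.03 and LYS-High 3 at 0.10. Where leaving out 1 library changed a call, that library is named.

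**Figure D1:**
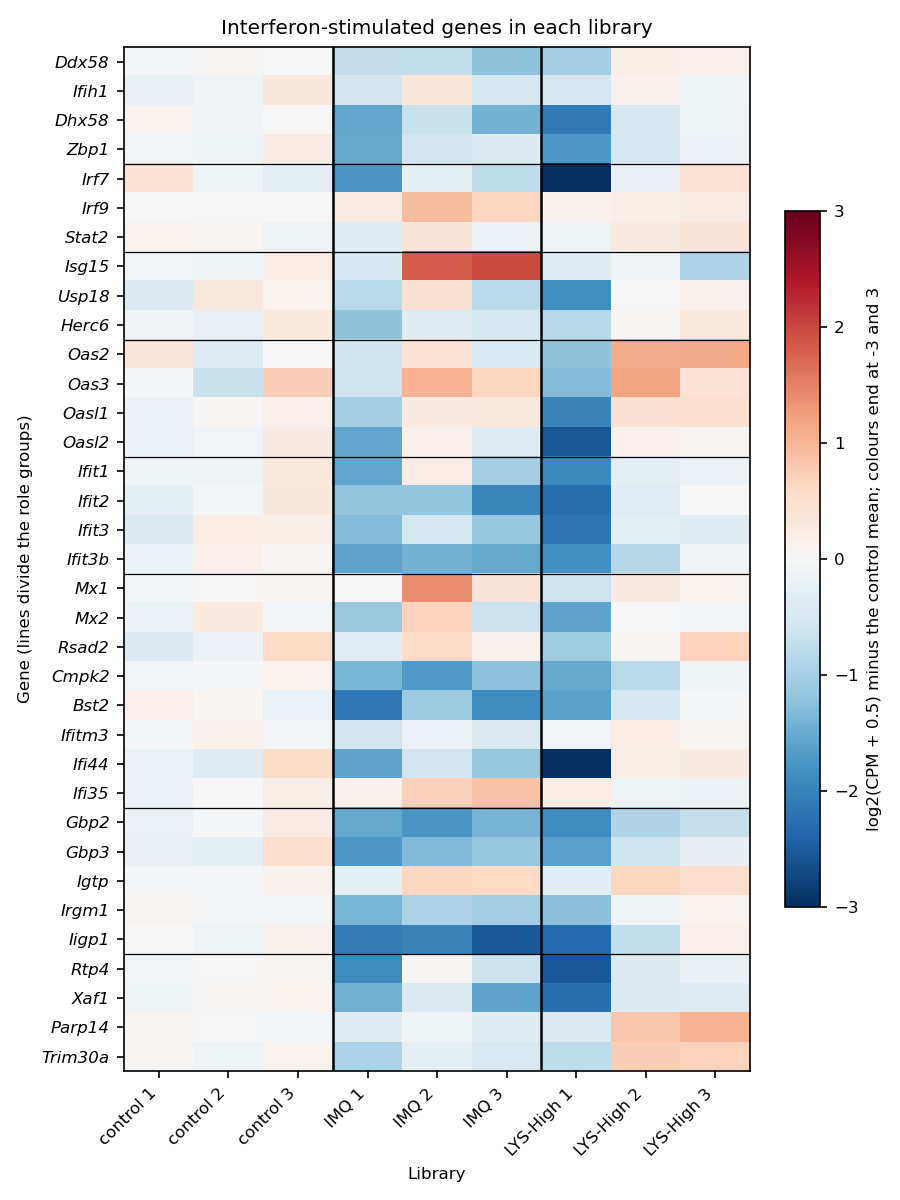
Level of the 35 measured interferon-stimulated genes (rows, divided by role) in each of the 9 libraries (columns), as log2(CPM + 0.5) minus the mean of the control libraries; red is above and blue below the control mean, and the colours end at −3 and 3. LYS-High 1 is blue in nearly all rows, while LYS-High 2 and 3 lie near or above the control level in many of them.

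Comparing the IMQ group with the control group asked how the response genes stood after repeated application of a Tlr7 agonist. More members were lower than higher: 14 of 35 were called lower and 3 higher (Irf9, Isg15 and Ifi35), and 18 were not called. Over all 15976 genes tested, 26.9% were called lower and 24.1% higher. The counts of the role groups below stand beside these same shares, and no role group was tested against them. The largest falls were in the GTPase Iigp1 (log2 fold change −2.27), the IFIT protein gene Ifit3b (−1.82), the tetherin gene Bst2 (−1.68), the guanylate-binding protein gene Gbp2 (−1.61) and the nucleotide kinase gene Cmpk2 (−1.54). The median log2 fold change of the members was −0.67, against −0.06 for all genes tested, and 28 of 35 lay below 0. All 3 IMQ libraries lay below all 3 control libraries for 19 members and above them for 1, where 35.9% and 34.1% of all genes tested did so. Of the 14 calls in the lower direction, 10 (Ddx58, Dhx58, Ifit2, Ifit3b, Cmpk2, Bst2, Gbp2, Gbp3, Irgm1 and Iigp1) were made under each of 12 alternative settings, and none of the 3 calls in the higher direction was. Without IMQ 1 the members' median was −0.30, with 13 called lower and 5 higher, Mx1 and Igtp among them, where 28.8% and 25.4% of all genes were called. Without IMQ 2 it was −0.96, with 19 lower and 0 higher, where 22.8% and 22.2% of all genes were, and Irf7, Usp18, Ifit1, Mx2, Rtp4 and Trim30a were among those lower. Scaled to library totals alone, the median of all genes fell to −0.51 and that of the members to −1.15, which is 0.64 below it, and 22 members were called lower and 0 higher, where 42.9% and 15% of all genes were.

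**Figure D2:**
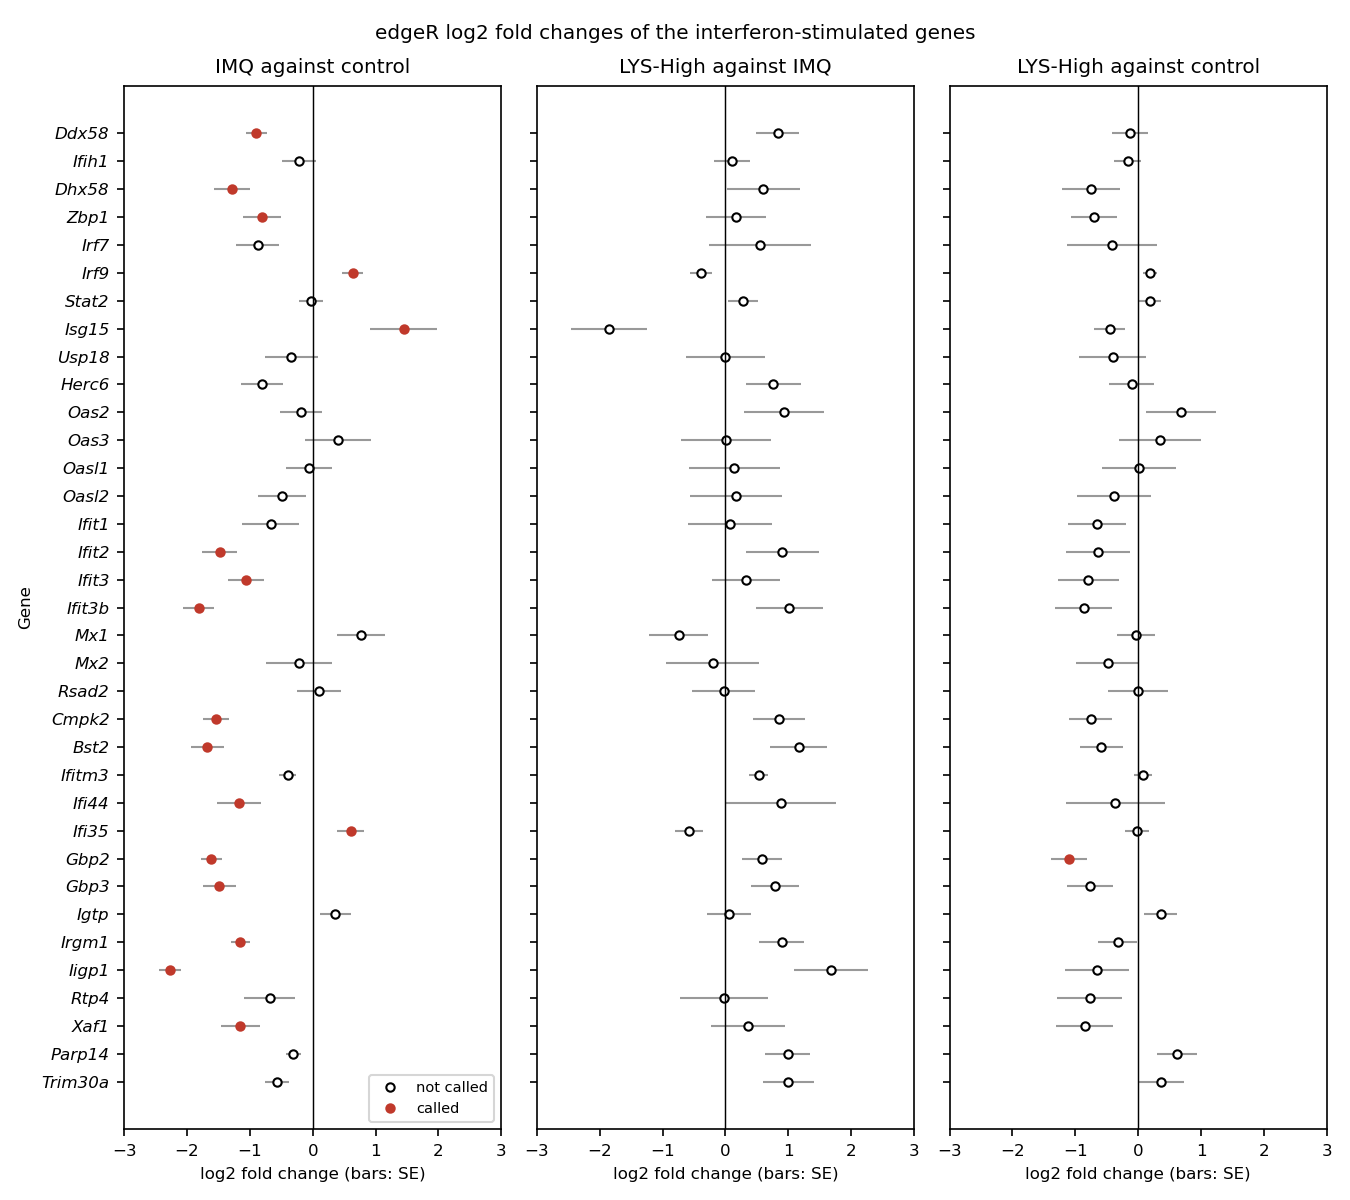
Log2 fold change (x axis, points, with bars of 1 SE) of each measured interferon-stimulated gene (y axis) in the 3 comparisons, from edgeR fits of 6 libraries each; filled points were called. In IMQ against control 17 genes were called, 14 of them lower, in LYS-High against IMQ none was, and in LYS-High against control Gbp2 alone was.

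Among the 4 sensors of nucleic acid, 3 fell in the IMQ group. Ddx58, which encodes the cytosolic RNA sensor RIG-I, was at 26.6, 28.8 and 28.3 CPM in the control libraries, 16.9, 16.5 and 11.9 in the IMQ libraries and 13.8, 31.9 and 30.8 in the LYS-High libraries. All IMQ libraries thus lay below all control libraries, and the log2 fold change was −0.90 (SE 0.16, adjusted p = 0.00188). Dhx58, which encodes the related helicase LGP2, and Zbp1, a sensor of left-handed nucleic acid linked to necroptosis, were also called, at −1.29 and −0.81. The call of Zbp1 held under 5 of 12 alternatives and was lost without any 1 of the control libraries, IMQ 1 or IMQ 2. Ifih1, which encodes the long-RNA sensor MDA5, was at 24.4, 26.5 and 36.1 CPM in control skin, 19.4, 36.7 and 19.7 in the IMQ libraries and 20.2, 31.1 and 26.1 in the LYS-High libraries. Its groups overlapped, and its difference of −0.21 was not called (adjusted p = 0.511).

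The 3 transcription factor genes went different ways. Irf9, the DNA-binding subunit of ISGF3, rose: it was at 32.5, 32.2 and 32.9 CPM in control skin, 38.8, 62.9 and 51.2 after imiquimod and 35.5, 36.6 and 38.9 in the LYS-High group. No IMQ library overlapped the control libraries, and the log2 fold change was 0.64 (SE 0.17, adjusted p = 0.0113). The call was lost without IMQ 2 or when libraries were scaled to their totals alone, and reads of the neighbouring Rnf31, which shares exonic bases on the same strand, cannot be assigned with certainty. Irf7, which amplifies the response and is itself a strong interferon target, was at 68.1, 46.8 and 41.7 CPM in the control libraries, 14.8, 41.3 and 30.0 in the IMQ libraries and 4.82, 43.7 and 69.3 in the LYS-High libraries. The IMQ libraries lay below the control libraries by a margin that was small for IMQ 2, and the difference of −0.88 did not pass (adjusted p = 0.0525). It was called lower under 4 of 12 alternatives, which were DESeq2 (adjusted p = 0.0357), no scaling, no filter on low counts, and leaving out IMQ 2 (−1.22, adjusted p = 0.0228). Stat2, also a subunit of ISGF3, was not called either (−0.03, adjusted p = 0.902).

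Isg15, a ubiquitin-like protein gene at chr4:156199424-156200818 on GRCm38, had the largest rise and the least even one. Its levels were 12.4, 12.1 and 15.4 CPM in the control group, 9.05, 47.7 and 53.0 after imiquimod and 10.1, 12.2 and 6.65 with the soup. IMQ 2 and 3 were far above every other library, whereas IMQ 1 was below all control libraries, so the groups overlapped. The log2 fold change was 1.45 (SE 0.54, adjusted p = 0.0451), and the call held under 4 of 12 alternatives. It was lost with DESeq2 (adjusted p = 0.0774) and without any 1 of the control libraries, IMQ 2 or IMQ 3. Scaling to library totals alone, or fitting the replicate number as a block, also lost the call. Usp18, the protease that removes Isg15 from its targets and dampens receptor signalling, did not follow: it was at 3.28, 5.77 and 4.97 CPM in control skin, 2.37, 6.48 and 2.42 after imiquimod and 0.907, 4.58 and 5.05 in the LYS-High group. Its groups overlapped and its difference was −0.34 (adjusted p = 0.509), or −0.96 and called without IMQ 2 (adjusted p = 0.0482). Herc6, the ligase that attaches Isg15 in the mouse, was at −0.81 and was not called (adjusted p = 0.0633).

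None of the 4 oligoadenylate synthetase genes measured, whose products make the second messenger that switches on RNase L or are inactive relatives of such enzymes, was called in the IMQ group by edgeR, and by DESeq2 or at an unadjusted p under 0.05 the number was also 0. Oas2 was at 9.90, 5.68 and 7.597 CPM in the control libraries, 4.86, 10.4 and 5.35 in the IMQ libraries and 3.00, 16.8 and 17.1 in the LYS-High libraries. Oas3 was at 3.67, 2.22 and 6.77, then 2.31, 8.42 and 6.30, then 1.26, 9.38 and 5.39 CPM in the same groups. Oasl2 was at 13.3, 14.3 and 18.5 CPM in control skin, 4.86, 16.8 and 11.7 after imiquimod and 2.16, 16.8 and 16.1 with the soup. For each of the 3, IMQ 1 was the lowest IMQ library and LYS-High 1 the lowest of all 9. The differences of IMQ from control ran from −0.49 for Oasl2 to 0.40 for Oas3 over the family, with adjusted p from 0.295 to 0.899.

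In contrast to the synthetases, 3 of the 4 IFIT genes, whose products bind viral RNA or the translation machinery, fell; whether the families differed was not tested. Ifit2 was at 13.8, 16.5 and 21.8 CPM in control skin, 7.35, 7.37 and 4.03 after imiquimod and 3.14, 13.3 and 16.8 in the LYS-High group. IMQ and control libraries did not overlap, with a log2 fold change of −1.48 (SE 0.28, adjusted p = 0.00229). Ifit3 was at 7.58, 12.2 and 12.1 CPM in the control libraries, 3.95, 7.08 and 4.47 in the IMQ libraries and 1.88, 8.42 and 7.97 in the LYS-High libraries. Ifit3b, its near copy in the same cluster on chromosome 19, was at 4.30, 5.64 and 5.11, then 1.34, 1.56 and 1.39, then 1.05, 2.54 and 4.59 CPM. All IMQ libraries lay below all control libraries for both, at log2 fold changes of −1.06 (SE 0.29, adjusted p = 0.0134) and −1.82 (SE 0.25, adjusted p = 0.000499). Reads of this pair may have been split or dropped in counting, so their separate levels are uncertain. Ifit1, which binds viral RNA lacking cap methylation, was at −0.67 and was not called (adjusted p = 0.231) unless IMQ 2 was left out or libraries were scaled to their totals alone.

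The 8 other antiviral effectors were mixed, with 3 lower, 1 higher and 4 not called, where 26.9% of all genes were lower and 24.1% higher. Bst2, the cell-surface tether that holds budding virions and a marker of plasmacytoid dendritic cells, lies at chr8:71534255-71537456 and was at 46.0, 43.0 and 36.3 CPM in control skin, 8.99, 19.4 and 11.1 after imiquimod and 13.3, 29.4 and 40.8 in the LYS-High group. Cmpk2, a mitochondrial nucleotide kinase encoded beside Rsad2, was at 9.95, 10.3 and 11.3 CPM in the control libraries, 3.77, 2.90 and 4.18 in the IMQ libraries and 3.28, 5.76 and 9.57 in the LYS-High libraries. In both genes the IMQ libraries lay wholly below the control libraries (Bst2 −1.68, SE 0.26, adjusted p = 0.000921, and Cmpk2 −1.54, SE 0.21, adjusted p = 0.000452). Rsad2 itself, which encodes the antiviral radical enzyme viperin, was at 0.10 and was not called (adjusted p = 0.819). Ifi44, an interferon-induced cytoplasmic protein gene, was called lower at −1.17 (SE 0.34, adjusted p = 0.0185), a call that was lost without control 3. Ifitm3, which blocks fusion of virus in endosomes, was at 158, 181 and 155 CPM in control skin, 111, 145 and 120.4 after imiquimod and 154, 191 and 175 in the LYS-High group. Its IMQ libraries lay below every library of the other groups, but its difference of −0.40 (adjusted p = 0.0316) was below the fold limit and was not called. Ifi35, which encodes a leucine-zipper protein induced by interferon, rose from 11.6, 13.0 and 14.7 CPM in control skin to 14.4, 21.7 and 24.3 after imiquimod and was at 15.4, 11.8 and 11.6 in the LYS-High group. IMQ 1 overlapped the control libraries, and the log2 fold change of 0.60 (adjusted p = 0.0373) was called under 6 of 12 alternatives. The call was lost without control 1, control 2, IMQ 2 or IMQ 3. Scaling to library totals alone, which gave 0.14, or using no filter on low counts also lost it. Mx1, a dynamin-like GTPase that most inbred strains carry without a functional protein, was at 3.09, 3.23 and 3.51 CPM in the control libraries, 3.22, 9.38 and 4.40 in the IMQ libraries and 1.95, 4.07 and 3.56 in the LYS-High libraries. IMQ 2 and, by less, IMQ 3 were above all control libraries, while IMQ 1 was within their range. The difference of 0.77 was not called (adjusted p = 0.114), and without IMQ 1 it was 1.08 and called higher (adjusted p = 0.0222). Mx2 was not called (−0.22, adjusted p = 0.733) but was called lower without IMQ 2.

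The interferon-inducible GTPases, which act on the vacuoles of intracellular pathogens, held the largest fall, and 4 of 5 were called lower. Iigp1, an effector immunity-related GTPase, was at 37.0, 32.8 and 39.9 CPM in control skin, 8.199, 8.79 and 5.93 after imiquimod and 6.84, 21.8 and 40.9 in the LYS-High group. The IMQ libraries were close together and all far below the control libraries, with a log2 fold change of −2.27 (SE 0.18, adjusted p = 3.98e-05). Gbp2, which coats pathogen vacuoles and lies at chr3:142620602-142638008, was at 34.4, 38.6 and 46.7 CPM in the control libraries, 13.3, 11.4 and 14.7 in the IMQ libraries and 10.5, 21.1 and 24.3 in the LYS-High libraries. Here too the IMQ and control libraries did not overlap (−1.61, SE 0.17, adjusted p = 0.000139). Gbp3 and the regulatory GTPase Irgm1 were called at −1.49 and −1.15. Igtp, another regulatory GTPase that shares exonic bases with Irgm2, was at 0.36 and was not called (adjusted p = 0.229), but was called higher without IMQ 1.

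Of the 4 other interferon-induced regulators, only Xaf1 was called. Xaf1, a pro-apoptotic antagonist of the caspase inhibitor XIAP, was at 10.9, 12.2 and 12.8 CPM in control skin, 4.07, 8.64 and 3.66 after imiquimod and 2.09, 8.64 and 9.001 in the LYS-High group. Its IMQ libraries lay below the control libraries (−1.15, SE 0.31, adjusted p = 0.0137). Parp14, a mono-ADP-ribosyltransferase, was at 37.3, 35.5 and 33.8 CPM in the control libraries, 27.4, 31.7 and 27.6 in the IMQ libraries and 26.7, 63.6 and 73.2 in the LYS-High libraries. Trim30a, a tripartite-motif protein gene, was at 23.5, 20.6 and 24.5 CPM, then 11.7, 18.7 and 16.4, then 13.3, 38.3 and 36.9. Both were lower in every IMQ library than in every control library, at −0.31 (adjusted p = 0.0445) and −0.57 (adjusted p = 0.0292), which is within the fold limit. Trim30a was called lower under 5 of 12 alternatives, among them leaving out IMQ 2 (−0.70, adjusted p = 0.0245) or control 2. For Parp14 and Trim30a alike, LYS-High 2 and 3 were above all 6 libraries of the other groups, while LYS-High 1 was below all 3 control libraries. Rtp4, a chaperone of receptor transport, was not called (−0.69, adjusted p = 0.174) unless IMQ 2 was left out or libraries were scaled to their totals alone.

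**Figure D3:**
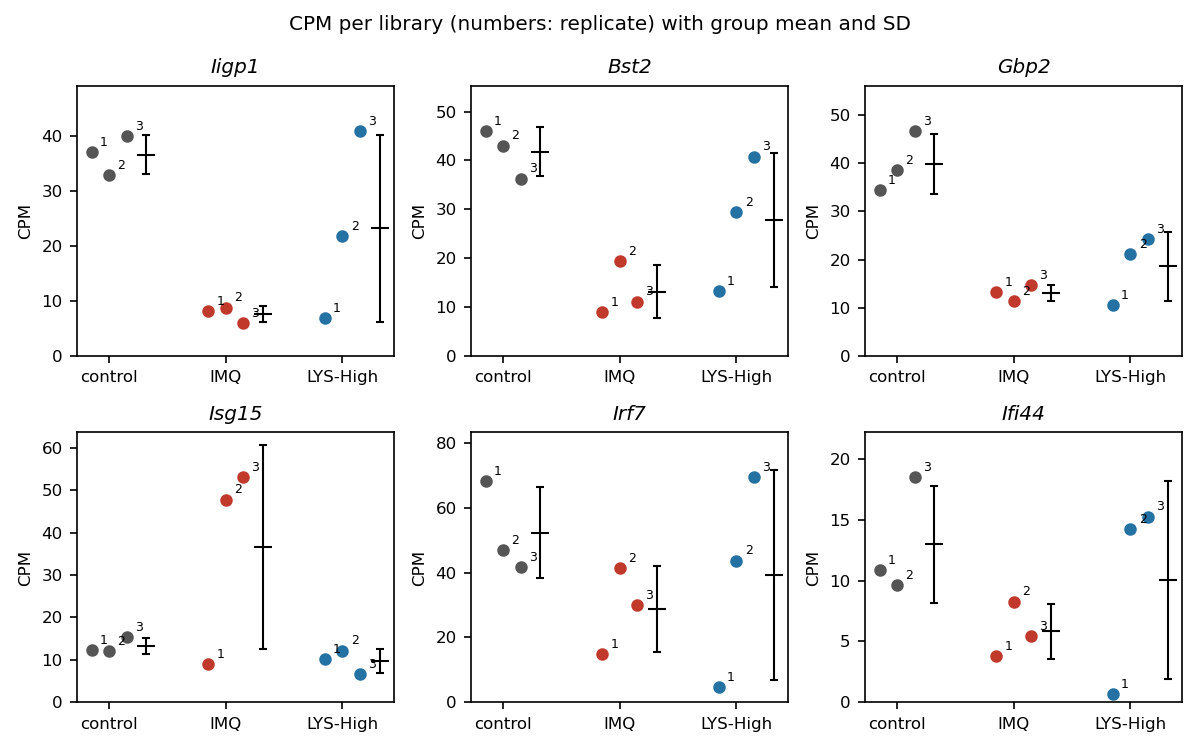
CPM of 6 interferon-stimulated genes (y axes, each from 0) by group (control, IMQ, LYS-High); points are libraries numbered by replicate, and the bars beside them give the mean and SD of the 3. Iigp1, Bst2 and Gbp2 were low in all IMQ libraries, Isg15 was high in IMQ 2 and 3 alone, and Irf7 and Ifi44 were lowest in LYS-High 1.

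Other genes of the pathway were called in both directions in the IMQ group, where edgeR called 24.1% of all genes higher and 26.9% lower. Whether a list differed from all genes was not tested. Of 21 interferon ligand genes listed, the 3 analysed here (Ifna16, Ifnk and Ifng) had at most 3 counts in every library, too few to compare, and Ifnb1 was not analysed here. Among 15 receptors, kinases and proximal regulators, 6 were higher and 0 lower by edgeR, and by DESeq2 likewise 6 and 0. At an unadjusted edgeR p under 0.05, 9 were higher and 1 lower. Over all genes, DESeq2 called 4217 higher and 4415 lower of 21296. At that unadjusted p, 4986 were higher and 5393 lower of 15976. The largest rises among the 15 were in the feedback inhibitors Socs3 (3.09, adjusted p = 6.12e-05) and Socs1 (2.83, adjusted p = 8.66e-05). The receptor chains Ifnar1 (−0.21) and Ifnar2 (−0.45) and the interferon-gamma target Irf1 (0.38) were not called, with adjusted p of 0.145, 0.0729 and 0.0512. Among 19 genes of nucleic acid sensing upstream of interferon, 6 were higher, led by the signalling proteins Traf6 (1.79) and Myd88 (1.65), and 4 lower. Tlr7, the receptor for imiquimod, was one of those lower: it was at 30.4, 23.9 and 20.02 CPM in control skin, 14.2, 7.89 and 5.64 after imiquimod and 10.5, 29.7 and 34.9 in the LYS-High group (IMQ against control −1.42, SE 0.32, adjusted p = 0.00601). The double-stranded RNA receptor Tlr3 also fell (−1.33, adjusted p = 0.000431). Of 77 further interferon-stimulated genes tested, 39 were lower and 7 higher, with a median of −0.69. The largest of these falls were in Gbp6 (−3.34) and Ifi205 (−3.07), and the largest rises in Slfn4 (4.78) and Ifitm1 (3.62).

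Markers of cell types moved between the same groups, where edgeR called 24.1% of all genes higher and 26.9% lower. In the IMQ group all 8 keratinocyte markers were higher, with a summed level of 42245 to 56294 CPM against 6110 to 10476 in control skin. All 6 fibroblast markers were lower, at 3277 to 10536 against 21496 to 27354 CPM summed, as were all 6 of hair follicle, at 0.440 to 0.911 against 1697 to 3650, all 6 of skeletal muscle, at 1726 to 4264 against 9287 to 10434, and 4 of 6 of endothelium, at 158 to 320.5 against 357 to 509. Macrophage and dendritic cell markers were lower for 7 of 14 and higher for 1, at 796 to 1044 against 1403 to 1987. All 7 neutrophil markers tested were higher, at 239 to 719 against 21.4 to 28.6. General leukocyte markers were higher for 4 of 6, at 588 to 847 against 375 to 560, although the defining marker Ptprc was not called (0.30, adjusted p = 0.165), and T and NK cell markers were higher for 4 and lower for 3 of 12, at 35.5 to 50.4 against 26.8 to 38.6. Of the 4 tested genes listed for plasmacytoid dendritic cells, Ccr9 was higher and Cox6a2 lower. The 6 listed summed to 30.7 to 51.3 against 55.6 to 78.9 CPM. Cox6a2 alone averaged 29.1 CPM in the IMQ group and 60.8 in control skin, so this sum mostly followed that gene. The sum was therefore not read as a level of these cells. Cox6a2 was lower in the IMQ group, as the skeletal muscle markers were. The part of muscle in its level was not tested. The defining marker Siglech was at 1.88, 4.85 and 2.44 CPM in control skin and 2.13, 1.27 and 2.20 in the IMQ group. Its difference was not called (−0.72, adjusted p = 0.176). The part of cell composition in the falls of the members was not tested.

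Comparing the LYS-High group with the IMQ group asked whether the soup altered these genes in imiquimod-treated skin. No member was called by edgeR in either direction, as for all 15460 genes tested (0% higher and 0% lower), and the smallest adjusted p among members was 0.0695, for Ifitm3. At an unadjusted p under 0.05, 7 members were higher and 2 lower, where 19.3% and 15.9% of all genes were. DESeq2 called 2 members higher (Iigp1 and Parp14) and 1 lower (Isg15), with 12.3% and 8.79% of all genes called. The groups of libraries did not overlap for 1 member, Ifitm3, which was higher, and for no member in the other direction, where 16.8% and 22.1% of all genes did not overlap. The median log2 fold change of the members was 0.36, against 0.04 for all genes, and 28 of 35 lay above 0. The largest differences were in Isg15 (−1.85, SE 0.60, adjusted p = 0.0857), Iigp1 (1.68, SE 0.59, adjusted p = 0.0969) and Bst2 (1.16, SE 0.45, adjusted p = 0.12).

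The counts of this comparison changed with LYS-High 1. Without it, 14 members were called higher and 0 lower, and the median of the members was 0.75. Of all 15895 genes tested, 2370 (14.9%) were called higher and 1892 lower. The 14 were Iigp1 (2.12, adjusted p = 0.00838), Bst2 (1.50, adjusted p = 0.0197), Ifit3b (1.40), Oas2 (1.40), Trim30a (1.35), Ifit2 (1.35), Parp14 (1.32), Cmpk2 (1.16), Ddx58 (1.14), Gbp2 (0.87) and Ifitm3 (0.62), with Ifi44, Gbp3 and Irgm1. With 2 libraries left, the group's spread rests on the pair that remained. Without IMQ 1, in turn, 0 members were called higher and 2 lower (Isg15 and Ifi35), where 6.8% and 5.03% of all genes were. Without either of the other IMQ libraries, LYS-High 2 or LYS-High 3 no member was called in either direction. In those fits 0 of all genes tested were called, so they do not set the members apart. Isg15, in which IMQ 2 and 3 stood above all other libraries, remained at −1.87 without LYS-High 1 (adjusted p = 0.0935).

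Several marker lists differed between LYS-High 1 and the other libraries of its group as well. Summed macrophage and dendritic cell markers were at 1340 CPM in LYS-High 1 and 2767 and 3229 in LYS-High 2 and 3, fibroblast markers at 9016, 14512 and 17415, endothelium markers at 311, 518 and 580, and keratinocyte markers at 33873, 19119 and 18194. Neutrophil markers were highest in LYS-High 1, at 452, 352 and 179 CPM, whereas T and NK cell markers were at 65.5, 68.2 and 56.8 and general leukocyte markers at 943, 1261 and 1166. Siglech was at 0.768, 3.33 and 3.61 CPM and Tlr7, as given, was lowest in the same library. The members summed to 420.2, 796 and 865 CPM in these libraries, and the 81 further interferon-stimulated genes to 1645, 2408 and 2608. The part of these differences in the members' low levels in LYS-High 1 was not tested.

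**Figure D4:**
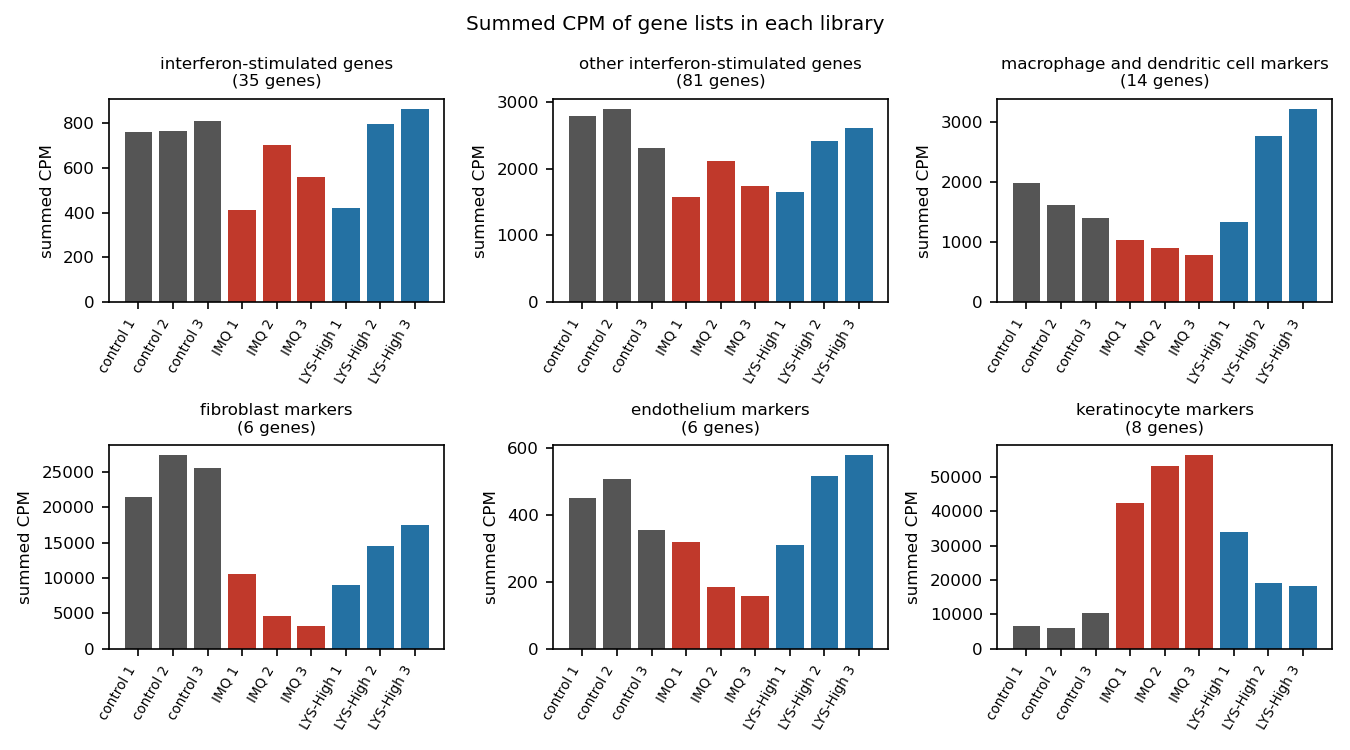
Summed CPM (y axes, each from 0) of the 35 measured interferon-stimulated genes, of 81 further ones and of 4 lists of cell type markers in each library (x axes); each bar is a library, coloured by group. LYS-High 1 is lower than LYS-High 2 and 3 in every panel but that of the keratinocyte markers, where it is higher.

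Comparing the LYS-High group with the control group, 1 member was called lower and 0 higher by edgeR, where 12.9% and 15.1% of all 16003 genes tested were called. DESeq2 likewise called 1 lower and 0 higher, where 11.6% and 13.3% of all genes were called. At an unadjusted p under 0.05 the counts were 1 and 0, against 21.4% and 23% of all genes. The called gene was Gbp2 (−1.10, SE 0.29, adjusted p = 0.0253), in which all LYS-High libraries lay below all control libraries. The call was lost without any 1 of the control libraries or without LYS-High 2. The median log2 fold change of the members was −0.39, against −0.01 for all genes. Ifit3b (−0.87, adjusted p = 0.177) and Xaf1 (−0.85, adjusted p = 0.182) had the next largest differences. Without LYS-High 1 the median was 0.0008, with Oas2, Igtp, Parp14 and Trim30a called higher and 1 member, Gbp2, lower. In that fit 2543 (15.5%) of all 16406 genes tested were called higher and 2201 lower. Without LYS-High 3, 4 members were called lower (Gbp2, Ifit3b, Cmpk2 and Iigp1) and 0 higher, where 14.2% and 16.7% of all genes were. The comparisons share the IMQ and control libraries, so a member's values in one are not independent of those in another. For Iigp1 they were −2.27 for IMQ against control, 1.68 for LYS-High against IMQ and −0.66 for LYS-High against control.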

How the data were processed

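Whole back skin of 9 mouse samples was sequenced. Libraries were made with a NEBNext Ultra kit. Per the submitters' processing notes the authors used HISAT2, HTSeq 0.13.5 and the GRCm38 genome; the strand setting is not given in the sources used here. The deposited table holds, per the file headers, whole-number read counts and FPKM for 29205 genes in each library. The counts were tested; the deposited FPKM was used only to rank levels between genes. Each comparison was fitted on its own 6 libraries with edgeR 4.0.16 (R 4.3.3): TMM scaling, filterByExpr, the quasi-likelihood test and Benjamini-Hochberg adjustment over all genes tested. SE is the log2 fold change divided by the square root of F. The code was tested on simulated counts. Alternatives were DESeq2 1.42.0, its size factors in edgeR, no scaling, no filter on low counts, a replicate block, all 9 libraries in a single fit, no fold limit, and leaving out each library. Every pair of libraries within a group differed by more than counting error (chi-square over degrees of freedom, 16.9 to 100), so none was treated as a library deposited again.

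The members were given by name, and they and the lists were chosen with earlier results of these data known, so no test was run over a list. Values in every library are given for 22 members: the 2 of each of 8 role groups with the highest mean CPM, the 5 with the largest and the 5 with the smallest log2 fold change of IMQ against control, and the 3 with the largest absolute change in each other comparison. Other members are given by value or range, and Ifi44 was plotted after its values were seen. Genes outside the list were named from the marker and pathway lists only: Tlr7, Irf1, the receptor, ligand and defining marker genes, and up to 2 rises and 2 falls a list. A gene of these lists is not reported here. Gene coordinates are those of GENCODE M21 on GRCm38, and promoter windows are from RefSeq.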

Additional observations from a re-analysis of the deposited data

How the results depend on the processing

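The replicate numbers of the labels did not pair the libraries: deviations of same-numbered libraries correlated between −0.363 and 0.138, and not every library correlated best with its own number. With the replicate number as a block, 2 members were called higher and 15 lower in IMQ against control (median −0.82), where 3799 and 4245 of all 15976 genes were. LYS-High against IMQ gave 0 and 0 (median 0.20), as for all genes. LYS-High against control gave 0 and 1 (median −0.62), where 1721 and 1405 of all 16003 genes were called. Without scaling, IMQ against control gave 0 higher, 22 lower and a median of −1.15, where 15% of all genes were higher and 42.9% lower. In LYS-High against IMQ, DESeq2 gave 2 higher and 1 lower, where 1938 and 1381 of all 15711 genes were called. No filter on low counts gave 1 and 1, where 1453 and 966 of all 27402 genes were called. All 9 libraries in a single fit gave 1 and 1, where 1627 and 1413 of all 16392 genes were called.

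Leaving out 1 library at a time, IMQ against control gave 0 to 5 members higher, 12 to 19 lower and medians of −0.96 to −0.30. Of all 16298 to 16501 genes tested, 3644 to 4163 were higher and 3728 to 4731 lower. LYS-High against IMQ gave 0 to 14 higher, 0 to 2 lower and medians of 0.08 to 0.75. Of all 15748 to 15918 genes tested, 0 to 2370 were higher and 0 to 1892 lower. LYS-High against control gave 0 to 4 higher and 0 to 4 lower, where 1502 to 2739 and 1077 to 2333 of all 16318 to 16447 genes were. Its medians ran from −0.67 to 0.0008, the last without LYS-High 1, where the sign turned. The cause was not tested. Over refits of single named members, 692 kept the direction and the side of the threshold, 40 passed it newly, 22 no longer did and 38 changed sign, all in members called neither before nor after. Without scaling, Oas3 was at −0.0889 in IMQ against control and Ifitm3 at −0.0535 in LYS-High against control. In LYS-High against IMQ, Usp18 and Oas3 were at −0.0275 and −0.0269 with DESeq2, −0.0213 and −0.0190 with its size factors, −0.17 and −0.21 with the block and −0.0772 and −0.0685 in the single fit, and Oasl2 was at −0.11 with the block. Leaving out 1 library, Oas2 ran from −0.59 to 0.0301 in IMQ against control. In LYS-High against IMQ, Ifih1 ran from −0.0547 to 0.46, Irf7 from −0.17 to 1.07, Usp18 from −0.36 to 0.62, Oas3 from −0.66 to 0.47 and Oasl2 from −0.20 to 0.66. In LYS-High against control, Ddx58 ran from −0.32 to 0.18, Ifih1 from −0.32 to 0.0230, Irf7 from −1.09 to 0.13, Usp18 from −0.74 to 0.0513, Oas3 from −0.33 to 0.87, Oasl2 from −0.74 to 0.11, Mx1 from −0.24 to 0.23 and Ifi35 from −0.16 to 0.0703. With 3 libraries a group an exact permutation test cannot go below p = 0.1, so single genes rest on the fits across all genes.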
